A study of Mus musculus with 10 samples.

Results

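The unfolded protein and integrated stress response was followed as 33 genes in retinal microglia of mice with streptozotocin (STZ) diabetes. The members were the rows of the gene count table that carry 33 chosen symbols, out of 55487 genes in the table. They were sorted by role into 15 chaperones and folding enzymes of the endoplasmic reticulum (ER), 6 genes of ER-associated degradation, 4 stress sensors and their transcription factors, and 8 genes of the arm run by ATF4 and CHOP. The symbols matched 34 rows, because Ddit3 has a second identifier (ENSMUSG00000116429) that held no read in any library. All 33 genes passed the filter on low counts that left 18957 genes for testing.

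The ER folds the proteins that a cell secretes or places in its membranes, and its chaperone BiP also holds the stress sensors IRE1, PERK and ATF6 in check. When unfolded protein draws BiP away, ATF6 and the transcription factor XBP1, whose mRNA is spliced by IRE1, switch on genes for chaperones and for the disposal of misfolded protein. PERK instead phosphorylates the translation factor eIF2alpha, which slows protein synthesis while favouring translation of ATF4. Other kinases that sense amino acid shortage, haem loss or viral RNA act on the same site, so that the ATF4 programme is shared with the wider integrated stress response. ATF4 induces CHOP, and both drive genes of amino acid supply, redox balance and eIF2alpha dephosphorylation. Counts per gene do not show the splicing of Xbp1, the translation of ATF4 or the phosphorylation of eIF2alpha.

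There were 4 libraries from mice 8 weeks after STZ (8wk STZ), 3 from mice 4 weeks after STZ (4wk STZ) and 3 from littermate controls (Control). STZ is a toxin of pancreatic beta cells that leaves the animal without enough insulin. Every animal, controls included, was Cx3cr1GFP/+, with GFP in place of 1 copy of the fractalkine receptor gene, and both retinas of an animal were pooled before sorting of viable GFP-positive cells. The gate takes any myeloid cell that uses the Cx3cr1 promoter, and the ages of the animals were not given in the sources used here. A single Control group, with no time given for it, served both comparisons. Time since STZ and age at collection therefore cannot be told apart. The libraries held 46143178 to 62903489 reads in 8wk STZ, 33266838 to 49051036 in 4wk STZ and 45656309 to 54312248 in Control. Values are read counts per 1000000 reads of the library (CPM) after trimmed-mean (TMM) scaling, and a gene was called at a Benjamini-Hochberg adjusted p below 0.05 in edgeR's quasi-likelihood test, fitted on all 18957 genes and all 10 libraries.

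Of 9 microglial markers, Csf1r and Tmem119 were called lower in 8wk STZ than in Control, and the 9 together held 2.60 ± 0.105% of reads in 8wk STZ, 2.79 ± 0.154% in 4wk STZ and 3.08 ± 0.134% in Control (SD, n = 4, 3 and 3). All 16 rod markers were called lower in 8wk STZ than in Control, and their sum lay between 2909 and 4061 CPM in 8wk STZ, 4648 and 6686 CPM in 4wk STZ, and 9510 and 10613 CPM in Control. Of 10 inner neuron markers, 2 were called lower, with sums of 69.0 to 92.1 CPM in 8wk STZ, 152 to 180 CPM in 4wk STZ and 172 to 199 CPM in Control. Of 10 Müller glia markers, which include Apoe, a gene that microglia also express, 2 were called lower. The 10 together summed to 5952 to 20128 CPM in 8wk STZ, 3536 to 6326 CPM in 4wk STZ and 2831 to 5800 CPM in Control. In 8wk STZ against Control 9 of the 10 had a log2 fold change below 0 (median -0.71), so the sum ran opposite to most of the markers. Of 6 border macrophage markers, 5 were tested and none of these was called (sums of 59.3 to 429 CPM in 8wk STZ, 108 to 251 CPM in 4wk STZ, 122 to 318 CPM in Control), and the other had no read in any group. Of 4 pigment epithelium markers 3 were tested, of 6 B lineage markers 3 were tested, and none of these was called. The B lineage markers summed to 861 to 969 CPM in 8wk STZ, 814 to 937 CPM in 4wk STZ and 721 to 878 CPM in Control, nearly all of it from Ighm, the immunoglobulin mu heavy chain, at 719 to 968 CPM in every library. Mzb1, a chaperone cofactor of antibody-secreting cells, had no read in any library, and Jchain stayed at or below 1.46 CPM. Rods express ER chaperones too, and in these bulk samples fewer cells of a type and less RNA per cell cannot be told apart. The part of the rod RNA in the changes below was not tested.

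Promoter letters are shown first, because the chaperones and the ATF4 and CHOP arm are known for different control elements. Windows of 300 bases, from 250 before to 50 after the annotated start, were taken from RefSeq on build GRCm38.p6, and 29 of the 33 members had one. ATF6 and XBP1 are known to act through the ER stress response element (ERSE), which is CCAAT and CCACG with any 9 bases between them, and its short form ERSE-II, which is ATTGG and CCACG with any 1 base between them. ATF4 and C/EBP proteins are known to act through the composite element CARE (TGATGNAA). Each was searched on both strands. The printed windows run 5′ to 3′ on the gene's strand, with capitals marking the ERSE in Hspa5, Calr and Canx and the cyclic AMP response element CRE (TGACGTCA) in Ppp1r15a. Hspa5 (BiP) is at chr2:34771840-34772139 on the plus strand, Calr (calreticulin) at chr8:84846882-84847181 on the minus strand, and Canx (calnexin) at chr11:50325624-50325923 on the minus strand. Ddit3 (CHOP) is at chr10:127290543-127290842 on the plus strand and Ppp1r15a (GADD34) at chr7:45526219-45526518 on the minus strand. Calr, Canx, Ddit3 and Ppp1r15a are shown because they were called in 8wk STZ, and Hspa5 because it is the standard reporter of the response.
Hspa5: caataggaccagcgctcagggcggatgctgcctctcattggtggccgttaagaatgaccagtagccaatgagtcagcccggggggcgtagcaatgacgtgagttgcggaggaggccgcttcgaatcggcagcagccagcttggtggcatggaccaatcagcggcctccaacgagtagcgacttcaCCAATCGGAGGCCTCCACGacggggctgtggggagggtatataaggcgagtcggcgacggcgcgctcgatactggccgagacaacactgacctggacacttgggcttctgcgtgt
Calr: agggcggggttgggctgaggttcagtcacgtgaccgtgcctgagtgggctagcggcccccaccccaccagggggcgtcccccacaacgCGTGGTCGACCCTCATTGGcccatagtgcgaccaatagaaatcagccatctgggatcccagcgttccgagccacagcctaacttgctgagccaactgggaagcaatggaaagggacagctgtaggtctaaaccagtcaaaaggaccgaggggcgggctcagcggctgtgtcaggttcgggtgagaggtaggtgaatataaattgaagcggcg
Canx: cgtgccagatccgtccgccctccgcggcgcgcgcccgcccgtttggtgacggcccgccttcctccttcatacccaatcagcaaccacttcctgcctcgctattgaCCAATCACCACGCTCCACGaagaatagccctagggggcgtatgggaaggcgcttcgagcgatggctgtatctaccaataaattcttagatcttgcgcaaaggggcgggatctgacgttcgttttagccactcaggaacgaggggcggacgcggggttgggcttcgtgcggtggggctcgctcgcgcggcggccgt
Ddit3: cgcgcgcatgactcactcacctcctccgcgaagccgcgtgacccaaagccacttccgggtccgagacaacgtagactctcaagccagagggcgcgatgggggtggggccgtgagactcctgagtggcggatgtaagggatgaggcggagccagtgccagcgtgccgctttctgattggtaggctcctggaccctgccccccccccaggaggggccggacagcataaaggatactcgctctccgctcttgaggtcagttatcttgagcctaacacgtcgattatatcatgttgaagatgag
Ppp1r15a: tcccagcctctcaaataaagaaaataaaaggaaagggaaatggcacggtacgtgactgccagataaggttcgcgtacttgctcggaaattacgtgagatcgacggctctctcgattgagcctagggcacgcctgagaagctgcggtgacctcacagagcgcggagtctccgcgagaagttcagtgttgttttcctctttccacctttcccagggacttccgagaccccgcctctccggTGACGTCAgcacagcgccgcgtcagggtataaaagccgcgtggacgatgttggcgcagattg

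The ERSE stood in a window of 8 of the 29 members, against 0.119% of all 32851 windows in the table. That share counts windows, while each member counts once, although Atf5 and Derl2 had more than 1 window. These elements are already known for genes of this kind, so the counts describe the windows and are no test. All but 1 of the 8 members were chaperones or folding enzymes, namely Hspa5, Hsp90b1, Calr, Canx, Pdia6, Dnajc3 and Creld2. The other was Syvn1, the ubiquitin ligase of ER-associated degradation. The Hspa5 site reads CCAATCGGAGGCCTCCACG and lies 65 to 47 bases before the start. The Calr site reads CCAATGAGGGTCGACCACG on the opposite strand, 162 to 144 bases before the start, so it appears above in reverse complement. The Canx site reads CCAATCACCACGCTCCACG, 145 to 127 bases before the start. Hsp90b1, the ER form of HSP90, held 2 sites, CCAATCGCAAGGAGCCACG and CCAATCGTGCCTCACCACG, on opposite strands. ERSE-II stood in Dnajb11 and Herpud1, against 0.0365% of all windows, and reads ATTGGGCCACG in Herpud1, 52 to 42 bases before the start. That gene also held a CARE, TGATGCAA, as did Chac1 with the same letters, Asns with TGATGAAA and Trib3 with TGATGTAA. CARE stood in 3.97% of all windows, CRE in 1.79% and the XBP1 element UPRE (TGACGTGG) in 0.676%, the last in no member. No window of Atf4 or Ddit3 held any of these 5 motifs, which says only that these letters are not in those 300 bases.

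**Figure D1:**
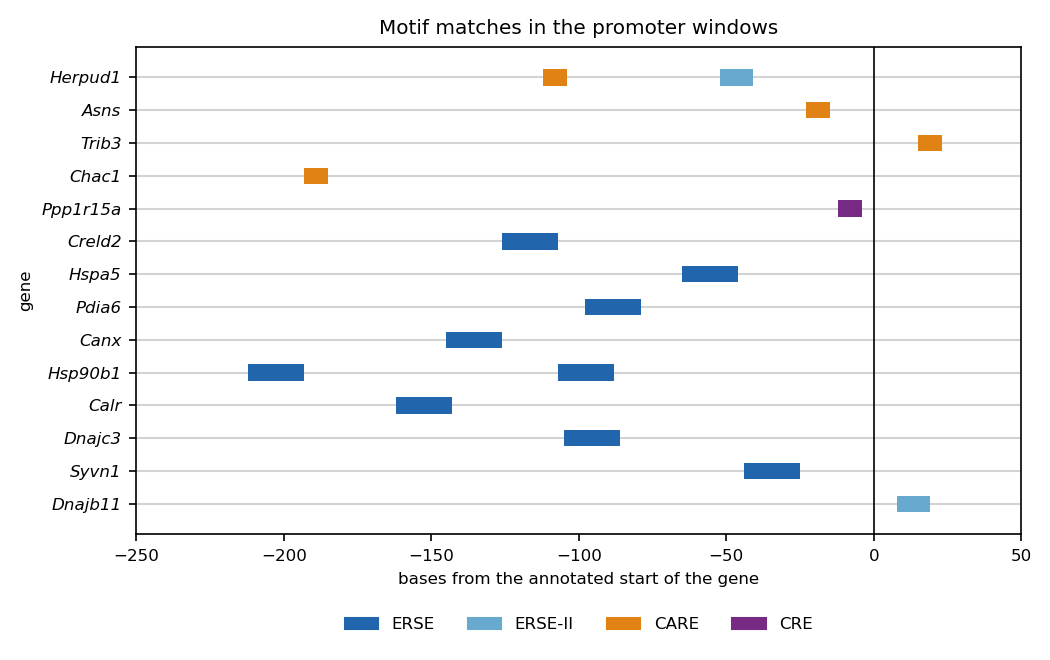
Positions of motif matches in the promoter windows of the members that hold one, in bases from the annotated gene start (x axis, start at 0), 1 gene per line. Each bar spans 1 match, coloured by motif; ERSE bars lie upstream of the start in every gene that has one, and the Trib3 CARE and Dnajb11 ERSE-II lie downstream of it.

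Within the control libraries, Control 2 stood apart in the chaperones before any comparison with diabetes. For 13 of the 15 chaperones and folding enzymes it held the highest level of all 10 libraries (86.7%), against 11.5% of the 8300 tested genes with a mean of 10 CPM or more. The median ratio of Control 2 to the mean of Control 1 and Control 3 was 1.34 for the chaperones and 0.984 for those 8300 genes. Creld2, a secreted ER stress-inducible protein, had 112 CPM in Control 2, against 48.6 CPM in Control 1 and 50.5 CPM in Control 3. Hspa5 had 1567 CPM in Control 2, against 1014 CPM in Control 1 and 937 CPM in Control 3. Of the ATF4 and CHOP arm, 3 members had a mean of 10 CPM or more. Ddit3 in Control 2 was 1.64 times the mean of Control 1 and Control 3, Atf4 0.668 times and Ppp1r15a 0.818 times. For none of these 3 was Control 2 the highest of the 10 libraries. Among the sparser members of the arm, Trib3 (4.50 CPM) and Asns (4.41 CPM) were highest in Control 2. There Chac1 was 22.4 times, Atf5 0.852 times and Sesn2 0.319 times the mean of Control 1 and Control 3.

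Per kilobase of exon, the most abundant members were chaperones and folding enzymes. Pdia3, a disulfide isomerase that works with calreticulin and calnexin, led with 455 ± 35.9 CPM per kb in 8wk STZ, 505 ± 45.8 in 4wk STZ and 535 ± 54.2 in Control (SD, n = 4, 3 and 3). Hspa5 had 253 ± 29.0 CPM per kb in 8wk STZ, 258 ± 38.6 in 4wk STZ and 277 ± 81.3 in Control, differences within the spread of each group. Among the transcription factors Xbp1 was the most abundant, with 100 ± 5.16 CPM per kb in 8wk STZ, 114 ± 15.3 in 4wk STZ and 114 ± 6.27 in Control. Atf4 had 37.1 ± 2.57 CPM per kb in 8wk STZ, 19.8 ± 7.56 in 4wk STZ and 23.0 ± 5.02 in Control. The sensors PERK (Eif2ak3) and IRE1 (Ern1) lay between 0.959 and 1.72 CPM per kb in every group mean, and the ATF4 targets Trib3, Asns and Chac1 at or below 1.37.

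After 8 weeks of STZ, RNA of the ER lectin chaperones calreticulin and calnexin and of the degradation channel protein Derlin-1 fell relative to Control, and RNA of CHOP and of GADD34 rose. These 5 of the 33 members were called, 2 higher and 3 lower, against a background of 2.37% of all tested genes (0.971% called higher and 1.4% called lower). All 15 chaperones had a mean of 10 CPM or more, as did 8300 of the 18957 tested genes. The share called among genes of like abundance was not computed. The count of members called was 1 to 5 when 1 library was left out, and 0 when replicate number was added to the fit. Before adjustment, 15 of the 33 had a p below 0.05 in edgeR's quasi-likelihood test, against 15.7% of all tested genes. The called genes are protein-coding, and on GRCm38 with GENCODE vM21 they are Calr (ENSMUSG00000003814, chr8:84841850-84846934), Canx (ENSMUSG00000020368, chr11:50293961-50325673), Derl1 (ENSMUSG00000022365, chr15:57869502-57892448), Ddit3 (ENSMUSG00000025408, chr10:127290774-127296288) and Ppp1r15a (ENSMUSG00000040435, chr7:45522916-45526268). In 13 members the 8wk STZ and Control libraries did not overlap, 3 with 8wk STZ higher and 10 with it lower. Over all tested genes 16.9% had such groups, 8.91% with 8wk STZ higher and 7.99% with it lower.

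Calr, whose product calreticulin is the soluble lectin chaperone that holds glycoproteins until they are folded, had 295, 274, 331 and 295 CPM in 8wk STZ, 416, 378 and 393 CPM in 4wk STZ, and 449, 613 and 464 CPM in Control. Every 8wk STZ library lay below every 4wk STZ library, and every 4wk STZ library below every Control library. Calr fell 1.70-fold in 8wk STZ relative to Control, a log2 fold change of -0.77 ± 0.11 (SE; adjusted p = 0.00887, edgeR quasi-likelihood). It was called without each of the 10 libraries in turn. Without Control 2 its log2 fold change was -0.61, with an adjusted p of 0.0196.

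Canx, whose product calnexin is the membrane-bound partner of calreticulin, had 951, 990, 938 and 826 CPM in 8wk STZ, 1116, 1184 and 1390 CPM in 4wk STZ, and 1121, 1469 and 1503 CPM in Control. The 8wk STZ libraries again lay below all the others, while 4wk STZ and Control overlapped. The fall from Control was 1.47-fold, with a log2 fold change of -0.56 ± 0.12 (SE; adjusted p = 0.0355, edgeR quasi-likelihood). The call was lost without 4wk STZ 2, Control 2, Control 3 or any single 8wk STZ library, at adjusted p-values up to 0.125, and when scaled by library totals (adjusted p = 0.0643). Without Control 2 the log2 fold change was -0.50 (adjusted p = 0.110).

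**Figure D2:**
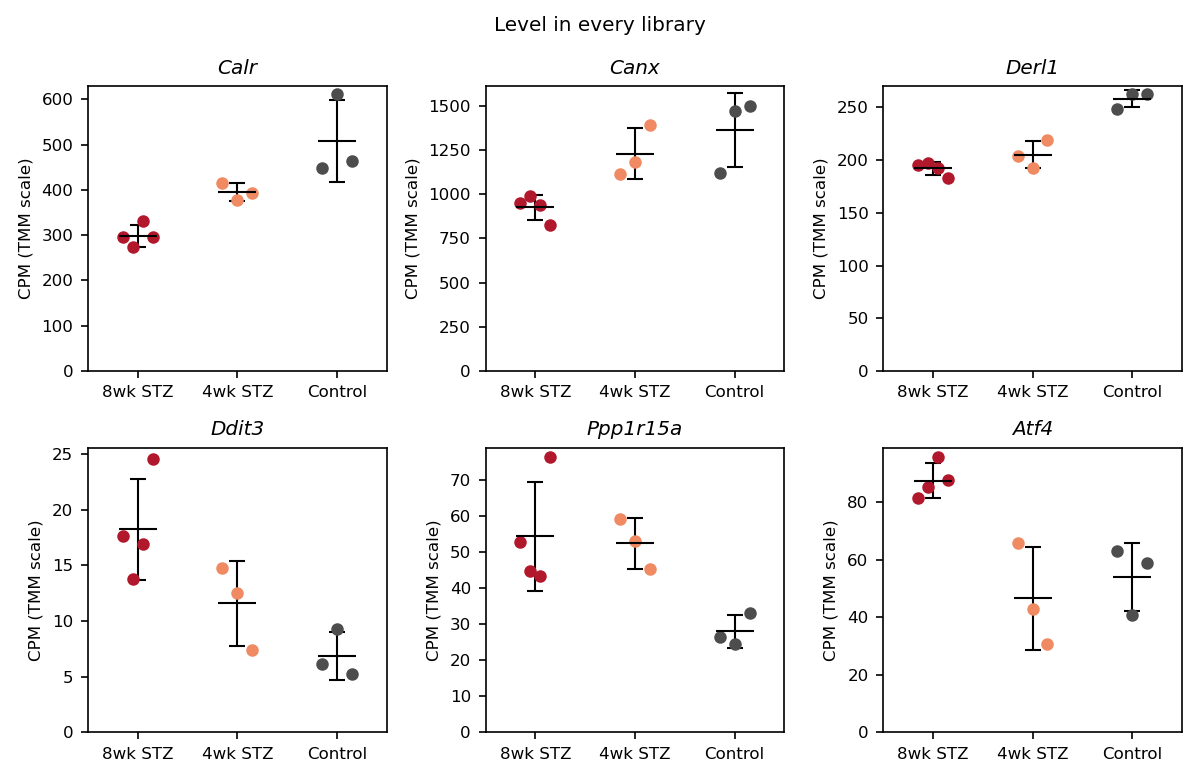
CPM (y axis, TMM scale, from 0) of the 5 called members and Atf4 in every library, by group, with the group mean and SD as bars. Calr, Canx and Derl1 lie lower in all 4 8wk STZ libraries than in all Control libraries, and Ddit3, Ppp1r15a and Atf4 lie higher.

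All 15 chaperones and folding enzymes had a log2 fold change below 0 in 8wk STZ against Control, or 13 of 15 when scaled by library totals, against 50.6% of all tested genes. Calr and Canx were the 2 called. Their median was -0.34, against -0.0061 over all tested genes. Scaling by library totals alone shifted the median of all genes by 0.10, and under it Dnajc3 and Manf lay above 0. Without Control 2 the count below 0 was 11 of 15 and the median -0.15, with Hspa5, Dnajb11, Manf and Creld2 then above 0 and Calr the only member called.

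Pdia3, the most abundant member, had 1508, 1543, 1348 and 1318 CPM in 8wk STZ, 1604, 1433 and 1719 CPM in 4wk STZ, and 1536, 1867 and 1633 CPM in Control, and it was not called (log2 fold change -0.23 ± 0.097, adjusted p = 0.274, edgeR quasi-likelihood). Without Control 2 the log2 fold change of Pdia3 was -0.15. Hspa5 overlapped in all 3 groups, with 1191, 1021, 922 and 1149 CPM in 8wk STZ, 1210, 1161 and 906 CPM in 4wk STZ, and 1014, 1567 and 937 CPM in Control. Its log2 fold change was -0.13 ± 0.18 (SE; adjusted p = 0.822, edgeR quasi-likelihood), and 0.13 without Control 2. Among genes chosen after their values were seen, Pdia4, Hyou1, P4hb and Pdia6 had 8wk STZ libraries that all lay below the Control libraries, with log2 fold changes of -0.57, -0.65, -0.38 and -0.42. None of these 4 was called, at adjusted p-values from 0.0679 for Pdia4 to 0.182 for Pdia6 (edgeR quasi-likelihood). Without Control 2 their log2 fold changes were -0.34, -0.57, -0.27 and -0.16, in the same order. Pdia4, Pdia6 and P4hb are disulfide isomerases, and Hyou1 is the nucleotide exchange factor of BiP. The small inducible chaperones and co-chaperones Manf, Dnajc3, Dnajb11, Creld2, Dnajb9 and Sdf2l1 had log2 fold changes between -0.077 for Manf and -0.43 for Sdf2l1. Without Control 2 those of Manf, Dnajb11 and Creld2 were 0.24, 0.12 and 0.21, and that of Sdf2l1 was -0.13. The holders of an ERSE included both Calr (-0.77) and Hspa5 (-0.13).

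Of the 6 genes of ER-associated degradation, which pulls misfolded protein out of the ER for the proteasome, 1 was called. Derl1, whose product Derlin-1 forms part of the retrotranslocation channel, had 195, 198, 193 and 183 CPM in 8wk STZ, 204, 193 and 219 CPM in 4wk STZ, and 249, 263 and 263 CPM in Control. Both STZ groups lay below every Control library and overlapped each other. Its log2 fold change in 8wk STZ against Control was -0.43 ± 0.077 (SE; adjusted p = 0.0178, edgeR quasi-likelihood), a 1.34-fold fall. The call was lost without 8wk STZ 3, 8wk STZ 4, Control 2 or Control 3, at adjusted p-values up to 0.0675, and when scaled by library totals (adjusted p = 0.0514).

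Herpud1, an ER membrane protein that recruits the degradation complex and carries both ERSE-II and CARE, had 368, 358, 338 and 362 CPM in 8wk STZ, 375, 338 and 275 CPM in 4wk STZ, and 334, 338 and 332 CPM in Control. On the TMM scale Herpud1 was the only one of the 6 with a log2 fold change above 0 (0.090 ± 0.100, SE; adjusted p = 0.775, edgeR quasi-likelihood). When scaled by library totals, Derl2 also lay above 0. Syvn1 (-0.40), Edem1 (-0.42), Sel1l (-0.22) and Derl2 (-0.073) were not called, and only Syvn1 among these had groups that did not overlap. The median of the 6 was -0.31, and -0.28 without Control 2.

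None of the 4 sensors and sensor-linked factors was called. Eif2ak3, which encodes PERK, had 11.4, 10.8, 10.8 and 8.56 CPM in 8wk STZ, 8.20, 6.46 and 13.4 CPM in 4wk STZ, and 9.26, 7.52 and 7.07 CPM in Control, with a log2 fold change in 8wk STZ against Control of 0.39 ± 0.27 (SE; adjusted p = 0.579, edgeR quasi-likelihood). Atf6, the membrane-tethered transcription factor, had 54.2, 59.5, 57.5 and 56.9 CPM in 8wk STZ, 46.4, 66.4 and 54.5 CPM in 4wk STZ, and 55.7, 48.7 and 48.3 CPM in Control. Both genes overlapped between the groups. Xbp1, counted over spliced and unspliced RNA together, had 326, 347, 307 and 321 CPM in 8wk STZ, 426, 337 and 343 CPM in 4wk STZ, and 346, 379 and 383 CPM in Control. Its log2 fold change of -0.18 ± 0.097 was not called (adjusted p = 0.413, edgeR quasi-likelihood). Of Eif2ak3's exonic bases, 8.05% overlap the opposite-strand model Gm43292, from which unstranded reads cannot be told apart.

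Ddit3 encodes CHOP, the transcription factor that marks sustained stress. It had 17.6, 13.8, 16.9 and 24.6 CPM in 8wk STZ, 14.8, 12.6 and 7.40 CPM in 4wk STZ, and 6.12, 9.29 and 5.22 CPM in Control. Every 8wk STZ library lay above every Control library, and the 4wk STZ libraries overlapped both. Ddit3 rose 2.65-fold in 8wk STZ relative to Control, a log2 fold change of 1.41 ± 0.31 (SE; adjusted p = 0.0449, edgeR quasi-likelihood). The call was lost without any single library other than 4wk STZ 3, at adjusted p-values from 0.0501 to 0.139, while the log2 fold change stayed between 1.23 and 1.68. Upper-quartile scaling also ended the call (adjusted p = 0.0501). Of its exonic bases, 3.97% overlap the methionyl-tRNA synthetase gene on the opposite strand, listed in the table as Mars1, whose log2 fold change was 0.051 (adjusted p = 0.930, edgeR quasi-likelihood).

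Ppp1r15a encodes GADD34, the phosphatase subunit that removes the phosphate from eIF2alpha and lets translation resume. It had 52.8, 45.0, 43.5 and 76.5 CPM in 8wk STZ, 59.2, 53.0 and 45.3 CPM in 4wk STZ, and 26.5, 24.4 and 33.3 CPM in Control. Both STZ groups lay above every Control library and overlapped each other. Ppp1r15a rose 1.94-fold in 8wk STZ relative to Control, a log2 fold change of 0.96 ± 0.21 (SE; adjusted p = 0.0431, edgeR quasi-likelihood). The call was lost without any 1 of the 10 libraries, at adjusted p-values from 0.0501 to 0.133 and log2 fold changes from 0.75 to 1.10. A fit of the 8wk STZ and Control libraries alone also ended the call (adjusted p = 0.0635).

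Atf4, the transcription factor at the head of the arm, had 81.3, 85.2, 95.7 and 87.8 CPM in 8wk STZ, 66.0, 43.0 and 30.9 CPM in 4wk STZ, and 62.9, 40.7 and 58.9 CPM in Control. The 8wk STZ libraries lay above all the others, and 4wk STZ and Control overlapped. The log2 fold change in 8wk STZ against Control was 0.69 ± 0.23 (SE), and it was not called (adjusted p = 0.166, edgeR quasi-likelihood).

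The sparser ATF4 targets, which serve amino acid supply, redox balance and nutrient sensing, were not called. Asns, asparagine synthetase, had 0.476, 1.26, 0.0398 and 0.151 CPM in 8wk STZ, 1.43, 1.26 and 2.99 CPM in 4wk STZ, and 1.67, 4.41 and 3.25 CPM in Control. The 8wk STZ values lay below those of Control and the log2 fold change was -2.68 ± 0.91 (SE; adjusted p = 0.169, edgeR quasi-likelihood), resting on 104 reads summed over 8wk STZ and 440 over Control. Chac1, a glutathione-degrading enzyme, had 15, 89, 15 and 84 reads in 8wk STZ, none in 4wk STZ, and 4, 43 and 0 in Control. Over the group, Chac1 had 0.911 CPM in 8wk STZ (exact Poisson interval 0.790 to 1.05). That level was 39-fold a floor of 3 reads over the 4wk STZ group (0.0233 CPM). The floor covers counting error in 4wk STZ only and the 39-fold leaves out that of 8wk STZ, so it is no lower bound. The difference between 8wk STZ and 4wk STZ was not called (adjusted p = 0.157, edgeR quasi-likelihood). Control 2 held 43 of the 47 Control reads, and Control 3 had none, as in 4wk STZ. Trib3, a pseudokinase that restrains the response, had 158, 83, 92 and 230 reads in 8wk STZ, 31, 0 and 40 in 4wk STZ, and 195, 200 and 0 in Control. Libraries of 1 group differed this much at low counts, and none of Trib3, Asns, Chac1, Atf5 and Sesn2 was called in any comparison.

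Of the 8 genes of the arm, 4 had a log2 fold change above 0 and 4 below in 8wk STZ against Control, with a median of 0.28 and 2 called, both higher. The median lay between 0.16 and 0.49 when 1 library was left out. The 12 immediate early genes, which respond to cell handling as well as to signalling, had a summed level of 1821 to 2533 CPM in 8wk STZ, 1338 to 1996 CPM in 4wk STZ and 1131 to 1795 CPM in Control. Of these, 11 of 12 had a log2 fold change above 0 in 8wk STZ against Control, Zfp36 was called higher, and their part in the rise of Ddit3 and Ppp1r15a was not tested.

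**Figure D3:**
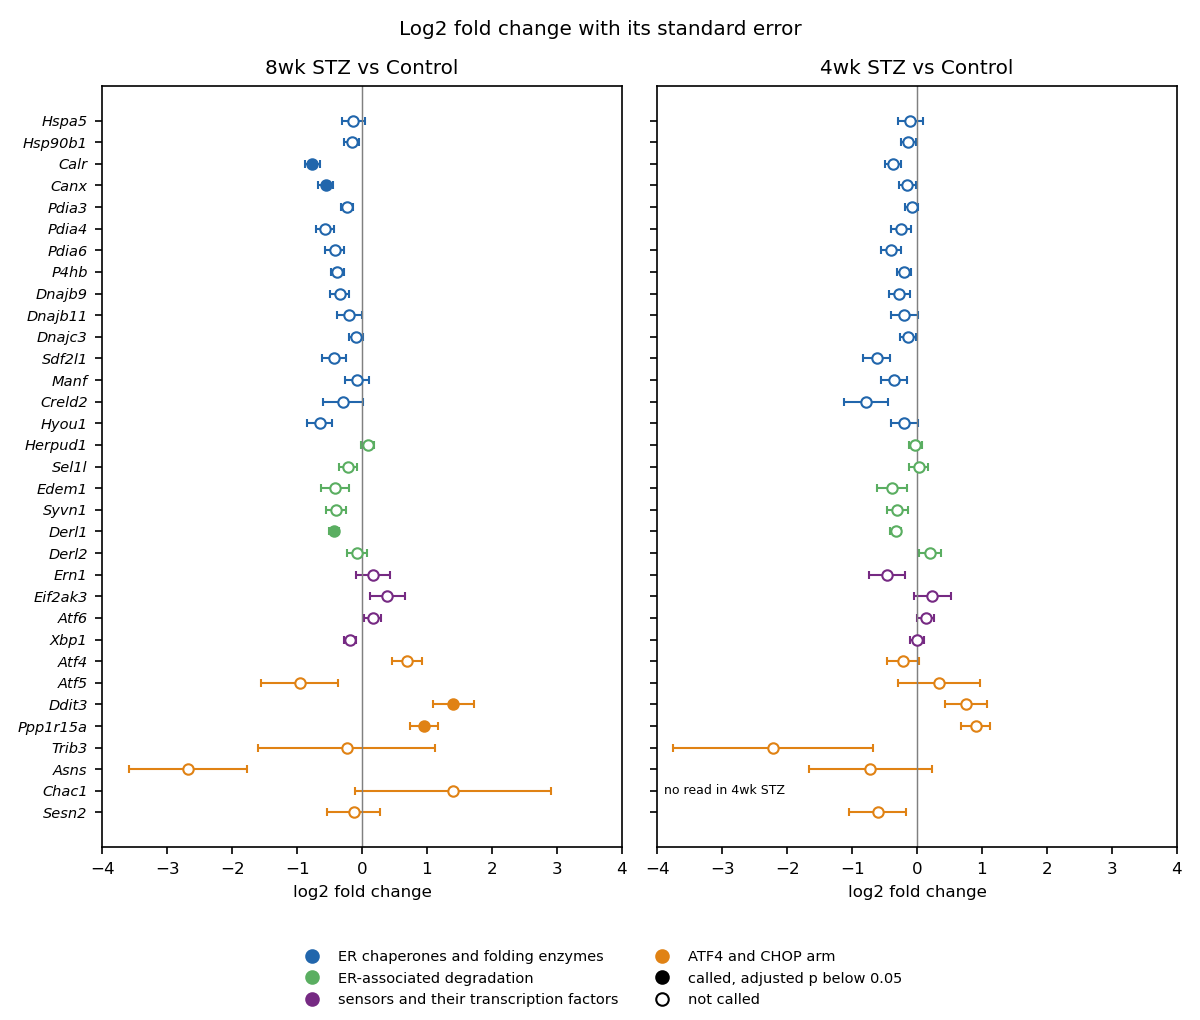
Log2 fold change (x axis) with its standard error for each member, grouped by role, in 8wk STZ against Control (left) and 4wk STZ against Control (right), with called genes filled. All chaperones lie left of 0 in both panels on this TMM scale (Dnajc3 and Manf do not in 8wk STZ when scaled by library totals), and Ddit3 and Ppp1r15a lie right of 0 in both; the panels share the Control libraries, and Chac1, with no read in 4wk STZ, is left out on the right.

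The contrast between the chaperones and the ATF4 and CHOP arm was set out as summed levels. The 15 chaperones and folding enzymes summed to 6409, 6230, 5870 and 5868 CPM in 8wk STZ, 6781, 6569 and 6968 CPM in 4wk STZ, and 6716, 9275 and 7239 CPM in Control. On the TMM scale every 8wk STZ library lay below every 4wk STZ and Control library, and 4wk STZ overlapped Control. Per 1000000 reads of the library total the chaperones summed to 6083 to 6737 in 8wk STZ, 6463 to 6735 in 4wk STZ and 6604 to 9028 in Control, and the groups overlapped. The 8 genes of the ATF4 and CHOP arm summed to 164, 156, 165 and 206 CPM in 8wk STZ, 152, 116 and 95.9 CPM in 4wk STZ, and 115, 89.8 and 113 CPM in Control. Here every 8wk STZ library lay above all the others, also per library total, with 165 to 215 in 8wk STZ, 92.7 to 150 in 4wk STZ and 87.4 to 113 in Control. Per 1000 CPM of chaperones, the arm held 28.5 ± 4.62 CPM in 8wk STZ, 18.0 ± 4.34 in 4wk STZ and 14.2 ± 3.95 in Control (SD, n = 4, 3 and 3). The range was 25.1 to 35.1 in 8wk STZ, 13.8 to 22.4 in 4wk STZ and 9.68 to 17.2 in Control, and Control 2 gave the lowest value. Most of the arm's sum came from Atf4 and Ppp1r15a, so it says little about the sparse targets. No test was made of these sums, because the members were chosen with results of these data known.

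**Figure D4:**
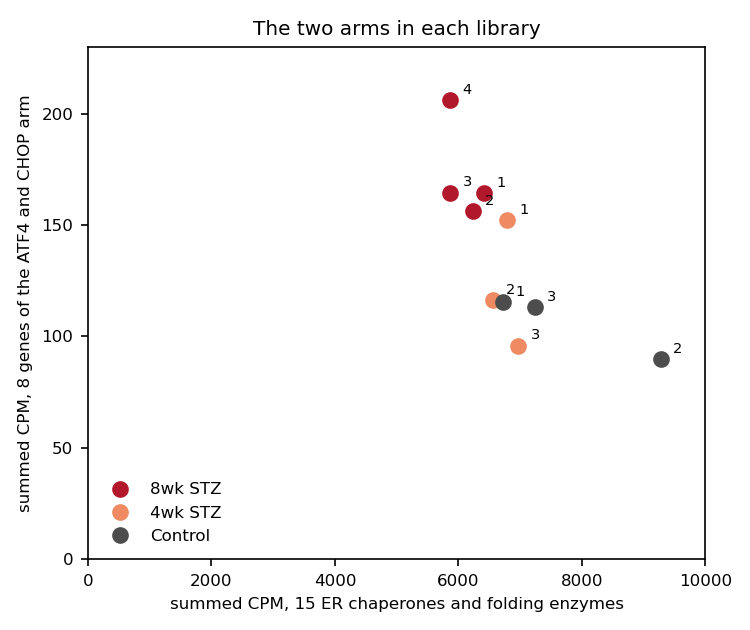
Summed CPM of the 15 chaperones and folding enzymes (x axis) against summed CPM of the 8 genes of the ATF4 and CHOP arm (y axis), both from 0, with 1 point per library numbered by replicate and coloured by group. The 4 8wk STZ libraries lie at the upper left, and Control 2 lies alone at 9275 CPM of chaperones.

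After 4 weeks of STZ no member was called against Control, and no gene of the 18957 was (0.0%) by edgeR's quasi-likelihood test. At an unadjusted p below 0.05 there were 1849 genes (9.75%) and 8 of the 33 members. DESeq2 called 314 genes and 2 members, edgeR's likelihood ratio test 243 genes and 1 member, and limma-voom none. Ppp1r15a had the smallest adjusted p of the members, 0.257, with a log2 fold change of 0.90 ± 0.22 (SE), and its 3 4wk STZ libraries lay above the Control libraries. Derl1 (-0.33 ± 0.083), Calr (-0.36 ± 0.12), Pdia6 (-0.40 ± 0.16) and Sdf2l1 (-0.62 ± 0.21) lay below Control without overlap, so that 5 of 33 members had groups apart, 1 higher and 4 lower, against 12.3% of all tested genes (6.07% higher and 6.25% lower). Without Control 2 the log2 fold changes were -0.32 for Derl1, -0.21 for Calr, -0.14 for Pdia6 and -0.31 for Sdf2l1. The median of the 15 chaperones was -0.20 with all 15 below 0, against 50.4% of all tested genes, and -0.092 with 13 below 0 without Control 2.

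In the authors' deposited table of the comparison with Control, which lists a likelihood ratio for 32 of the members, the calls at a false discovery rate below 0.05 were wider. The authors' deposited table has 10 members below it in 8wk STZ, with Asns, Calr, Canx, Derl1, Hyou1, P4hb and Pdia4 lower and Atf4, Ddit3 and Ppp1r15a higher. For 4wk STZ the authors' deposited table gives 1 member, Ppp1r15a, at a false discovery rate of 0.0144.

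Between 8 and 4 weeks of STZ, where no Control library enters the difference, none of the 33 members was called, against 0.918% of all tested genes. Atf4 had the smallest adjusted p of the members, 0.108, with a log2 fold change of 0.91 ± 0.23 (SE, edgeR quasi-likelihood), and its 4 8wk STZ libraries lay above the 3 4wk STZ libraries. Calr and Canx lay below 4wk STZ without overlap, with log2 fold changes of -0.41 ± 0.11 and -0.41 ± 0.12 and adjusted p-values of 0.134 and 0.142 (edgeR quasi-likelihood). In all, 9 of 33 members had groups that did not overlap, 4 with 8wk STZ higher and 5 with it lower, against 15.4% of all tested genes (8.39% higher and 6.97% lower). Ppp1r15a and Derl1 overlapped, with log2 fold changes of 0.052 ± 0.21 and -0.096 ± 0.077. The median of the chaperones was -0.029, and 0.054 when scaled by library totals alone.

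**Figure D5:**
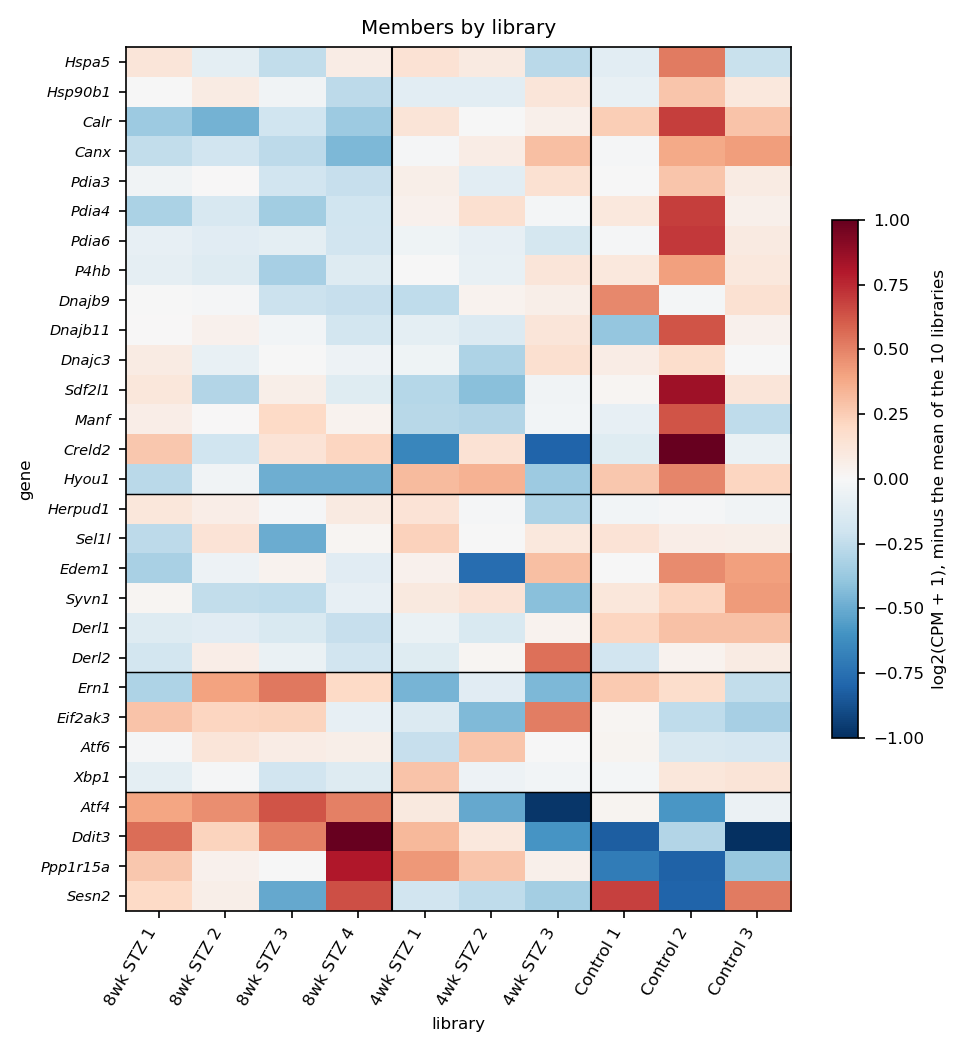
Level of 29 members (rows, by role) in each library (columns), as log2(CPM + 1) minus the mean of the 10 libraries, with colours ending at -1 and 1; Atf5, Trib3, Asns and Chac1, the 4 sparsest, are left out. For 13 of the 15 chaperones the reddest cell is in Control 2, and Calr and Canx are blue in all 4 8wk STZ libraries while Atf4, Ddit3 and Ppp1r15a are red or pale.

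The likeness of other genes to Hspa5 and Ddit3 over the 10 libraries is given as a description. Among 10175 genes at or above an average log2 CPM of 2, the 5 nearest to Hspa5 by correlation of log2 CPM were Nudc, Nlrx1, Gm8355, Cct8 and Gm5560, and each was highest in Control 2. The 5 nearest to Ddit3 were Anxa3, Grap, Pacs2, Pdrg1 and Usp30. Pdrg1 was highest in 8wk STZ 1, and the others were highest in 8wk STZ 4, as Ddit3 was. None of the 10 was a member, and the points share scaling, sort and group.

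Genes of the same pathways outside the 33 were counted from lists written by role, with earlier results of these data known. Their counts, here and in the next paragraphs, are therefore a description and no independent test of the members' pattern. Of 44 tested genes of ER import, glycosylation and folding, 5 were called lower in 8wk STZ than in Control and none was called higher, against 1.4% and 0.971% of all tested genes. The median of the 44 log2 fold changes was -0.14, with 28 of them below 0, against 50.6% of all tested genes. Stt3a, a catalytic subunit of the oligosaccharyltransferase that attaches glycans to new proteins, averaged 303 ± 5.63 CPM in 8wk STZ, against 445 ± 51.3 CPM in Control (SD, n = 4 and 3), a log2 fold change of -0.56 (adjusted p = 0.0124, edgeR quasi-likelihood). Rpn2, another subunit of that enzyme, averaged 489 ± 19.0 CPM in 8wk STZ, against 644 ± 38.5 CPM in Control. Uggt1, the enzyme that returns unfolded glycoproteins to calreticulin and calnexin, averaged 47.0 ± 1.01 CPM in 8wk STZ, against 67.5 ± 4.83 CPM in Control. The translocon-associated subunits Ssr1 and Ssr2 were the other 2, and Ssr1 averaged 444 ± 50.8 CPM in 8wk STZ, against 706 ± 66.2 CPM in Control. Stt3a was called without each of the 10 libraries in turn, Ssr1 in 5 of the 10, and Rpn2 and Uggt1 in 4 of the 10.

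Of 26 further genes of ER-associated degradation, 1 was called in 8wk STZ against Control, against 2.37% of all tested genes. This was Vcp, the ATPase that extracts ubiquitinated protein from the ER membrane, with 245 ± 20.2 CPM in 8wk STZ, against 337 ± 9.27 CPM in Control (SD, n = 4 and 3). Of 18 further sensors and regulators 1 was called, Tmbim6, an ER membrane protein that dampens IRE1 signalling and cell death, at 2400 ± 108 CPM in 8wk STZ, against 3426 ± 411 CPM in Control. Of 20 cytosolic heat shock genes 1 was called, Hsp90aa1, the inducible HSP90 of the cytosol, at 99.2 ± 9.39 CPM in 8wk STZ, against 173 ± 30.4 CPM in Control. Hsp90aa1 was called without each of the 10 libraries in turn, Tmbim6 in 6 of the 10 and Vcp in 4 of the 10.

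Of 51 further tested genes of the integrated stress response, 3 were called higher in 8wk STZ than in Control and none was called lower, against 0.971% and 1.4% of all tested genes. The median of the 51 log2 fold changes was -0.068, with 29 of them below 0. Nupr1, a stress-inducible chromatin protein and ATF4 target, had 80.6, 69.7, 63.9 and 66.7 CPM in 8wk STZ, 54.2, 39.2 and 28.3 CPM in 4wk STZ, and 33.3, 31.5 and 28.1 CPM in Control. Its log2 fold change was 1.18 ± 0.20 (SE; adjusted p = 0.0135, edgeR quasi-likelihood), and it was called in 8 of the 10 fits that left out 1 library. The calls of Nupr1 that were lost were those without Control 2 or Control 3, at adjusted p-values of 0.0503 and 0.0536. Cdkn1a, a cell cycle inhibitor that p53 also induces, averaged 24.4 ± 6.94 CPM in 8wk STZ, against 10.1 ± 1.57 CPM in Control (SD, n = 4 and 3). Cebpg, a dimer partner of ATF4, averaged 103 ± 5.88 CPM in 8wk STZ, against 74.1 ± 5.46 CPM in Control. Cdkn1a was called in 4 and Cebpg in 2 of the 10 fits that left out 1 library.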

How the data were processed

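Gene-level RNA-seq counts were used as deposited by the authors, in 10 libraries of sorted retinal cells. Per the labels' protocols, cDNA was made with the SMARTer Ultra Low kit, which does not mark strand, and sequenced in pairs. The submitters' processing notes name STAR, featureCounts, Salmon, edgeR and limma and the build GRCm38, in no order. Annotation release, strand handling and multiply mapping reads were not given in the sources used here. The authors' deposited table of comparisons holds log2 fold changes, likelihood ratio scores and p-values with false discovery rates, per the file headers, and was used only where it is named.

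From 55774 rows, 287 repeated identifiers with identical counts were dropped. In edgeR 4.0.16, genes passing filterByExpr were scaled by TMM and fitted with a quasi-likelihood model of the 3 groups (7 residual degrees of freedom), which gave all 3 contrasts. The code was tested on simulated data. 1 table column was not used. CPM per kilobase used exonic lengths of GENCODE vM21. Intervals and floors cover counting error only, and replicates are separate animals. The alternatives were other scalings and filters, DESeq2 1.42.0, limma-voom, the likelihood ratio test, fits of 2 groups, a replicate block and fits without libraries. Genes given in every library were called members, the 2 most abundant of each role, and those with the smallest p in each direction in 8wk STZ against Control. Hspa5 and others not covered by that rule were chosen after their values were seen. The members and lists were chosen with earlier results of these data known. 1 marker gene is not reported here.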

Additional observations from a re-analysis of the deposited data

Results flagged for a closer look

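Ssr1 and Vcp stood out because 8wk STZ and 4wk STZ differed from each other in a direct test, in which no Control library enters the difference. Ssr1 had 438, 503, 453 and 380 CPM in 8wk STZ, against 618, 623 and 814 CPM in 4wk STZ, a log2 fold change of -0.63 (adjusted p = 0.0480, edgeR quasi-likelihood). Vcp had 244, 224, 241 and 272 CPM in 8wk STZ, against 374, 324 and 316 CPM in 4wk STZ, a log2 fold change of -0.46 (adjusted p = 0.0425, edgeR quasi-likelihood). Neither call was kept when any 1 of the 10 libraries was left out, at adjusted p-values of 0.0597 to 0.154 for Ssr1 and 0.0625 to 0.130 for Vcp. Both genes lie outside the 33 members. Among the 33 members, no 8wk STZ library lay far from the other 3 by Dixon's criterion, with 33 groups of 4 examined and none past it.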

How the results depend on the processing

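For 8wk STZ against Control the count of members called, 5, was 3 with library totals, 10 with DESeq2, 8 with the likelihood ratio test, 1 without Control 3 and 4wk STZ 3, and 1 to 5 when 1 library was left out. All genes called, 449, numbered 1451 with DESeq2, 1151 with the likelihood ratio test, 275 without Control 3 and 4wk STZ 3, and 206 to 462 when 1 library was left out. The calls were 184 higher and 265 lower with TMM, 356 and 183 with library totals, and 151 and 337 with upper-quartile factors. Calr was called under all of these settings but the replicate block. Library totals ended the calls of Canx and Derl1, upper-quartile factors that of Ddit3, and a fit of 2 groups that of Ppp1r15a. For 4wk STZ against Control, members called were 2 with DESeq2 and 1 with the likelihood ratio test, and all genes called were 314, 243, 12 with no filter, and 0 to 1 when 1 library was left out (1 without Control 2). For 8wk STZ against 4wk STZ, members called were 1 with no filter, 3 with DESeq2, 2 with the likelihood ratio test and 0 to 1 when 1 library was left out (1 without 4wk STZ 1). All genes called there, 174, numbered 277, 1004 and 749 under the same settings, 100 in a fit of 2 groups, 6 without Control 3 and 4wk STZ 3, and 13 to 118 when 1 library was left out. Between libraries of the same replicate number, deviations from the group means correlated at -0.030 to 0.035 over all tested genes. A correlation over all genes cannot show whether some genes share a batch. What the replicate numbers stand for was not given in the sources used here. With the replicate block 0 members and 44 genes were called for 8wk STZ against Control and 0 genes for 8wk STZ against 4wk STZ.

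Medians of log2 fold changes moved as follows. For 4wk STZ against Control, the ATF4 and CHOP arm (-0.41, also with Chac1 at its floor) was -0.21 in a fit of 2 groups, -0.16 without Control 3 and 4wk STZ 3, and -0.55 to -0.21 when 1 library was left out. ER-associated degradation (-0.16) was -0.016 without Control 3 and 4wk STZ 3 and -0.23 to -0.088 when 1 was left out, and the sensors (0.064) were -0.059 without Control 3 and 4wk STZ 3. For 8wk STZ against Control, ER-associated degradation (-0.31) was -0.20 with library totals, the ATF4 and CHOP arm (0.28) was 0.82 with limma-voom and 0.16 to 0.49 when 1 library was left out, and the chaperones (-0.34) were -0.44 to -0.15 when 1 library was left out, the last without Control 2. For 8wk STZ against 4wk STZ, the chaperones (-0.029) were 0.054 with library totals and -0.091 with upper-quartile factors. ER-associated degradation (-0.097) was -0.012 and -0.16 under these and -0.21 to -0.043 when 1 was left out, and the sensors (0.092) were 0.26 without Control 3 and 4wk STZ 3 and 0.0021 to 0.26 when 1 was left out. The log2 fold change of Atf4 in 4wk STZ against Control (-0.22) turned to 0.0076 without 4wk STZ 3 and 0.073 without Control 3 and 4wk STZ 3. That of Ppp1r15a in 8wk STZ against 4wk STZ (0.052) turned to -0.011 with upper-quartile factors, -0.16 with the replicate block, -0.043 without 4wk STZ 3, -0.16 without 8wk STZ 4 and -0.044 without Control 3 and 4wk STZ 3, and ranged from -0.16 to 0.15 when 1 library was left out. The causes were not tested. Atf5, Trib3, Asns and Chac1 were the members with the fewest reads.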
